A study of Mus musculus with 6 samples.

Results

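The Ly6 surface antigens examined here are Ly6g, Ly6c1, Ly6c2, Ly6a and Ly6e, and every array probe whose annotated gene symbol is one of these was taken. Of the 5 genes, 2 had such a probe, Ly6c1 with 1 probe and Ly6e with 2, out of 19053 named genes on the array. Ly6g, Ly6c2 and Ly6a had no probe under their symbol in the annotation used and were not analysed here. RNA came from splenic CD11b+Gr-1high cells of mice with an H-2b background, purified by flow cytometry in 2 independent experiments per the series' design text. The groups were wild-type mice without a tumor, IRF8 KO mice without a tumor, which lack the transcription factor IRF8, and wild-type mice bearing a tumor grown from AT-3, a transplanted mouse mammary carcinoma line, with 2 arrays each. Ages, the form of the IRF8 deletion and the number of animals per array were not given in the sources used here, nor was which array came from which experiment. The p values measure only the spread between these arrays.

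Ly6 proteins are small disulfide-rich domains held on the outer cell membrane by a glycosylphosphatidylinositol (GPI) anchor, and their genes lie side by side in a cluster. The Gr-1 antibody binds Ly6G strongly and Ly6C more weakly, so Gr-1 staining separates Ly6G-rich neutrophils from Ly6C-rich monocytes. Ly6C is encoded by the near-identical genes Ly6c1 and Ly6c2. Ly6a encodes Sca-1, a marker of stem cells and activated lymphocytes, and Ly6e encodes an interferon-inducible member also known as TSA-1 or Sca-2. Because the cells were gated on Gr-1, the surface protein made from Ly6g and Ly6c was part of how every sample was chosen, and transcript levels below are levels within that gate.

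In the RefSeq annotation of the mouse genome, the stretch of chromosome 15 from Ly6d to Ly6h held 22 protein-coding genes, in which Ly6e is followed by Ly6i, Ly6a, Ly6c1, Ly6c2, Ly6a2 and Ly6g. The array files carry no coordinates, so this order is used for names only. Of the 22 genes, 10 had a named probe. Among these, 5 were tested, a probe being tested where its signal exceeded the negative controls (detection p under 0.05) on 2 or more arrays. The bases before the transcription start are shown for the 3 genes whose proteins the Gr-1 antibody reads, to let the measured gene be seen beside its unmeasured neighbours. They are 250 bases long, 5′ to 3′ on the gene's strand, from RefSeq with build GRCm38.p6, for the most upstream start in the table. Capitals mark GAGGAA, the core bound by the myeloid factor PU.1, on either strand.
Ly6c1, chr15:75048838-75049087, minus strand: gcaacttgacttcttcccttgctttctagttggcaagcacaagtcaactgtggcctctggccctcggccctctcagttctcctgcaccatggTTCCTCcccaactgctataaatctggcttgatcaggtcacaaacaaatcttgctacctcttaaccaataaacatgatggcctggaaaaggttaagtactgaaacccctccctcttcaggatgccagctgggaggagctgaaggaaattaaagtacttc
Ly6c2, chr15:75111972-75112221, minus strand: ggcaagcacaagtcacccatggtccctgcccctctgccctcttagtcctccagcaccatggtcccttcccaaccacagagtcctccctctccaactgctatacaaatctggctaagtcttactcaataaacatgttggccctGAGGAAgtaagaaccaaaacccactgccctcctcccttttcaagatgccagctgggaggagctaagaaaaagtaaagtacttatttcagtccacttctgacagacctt
Ly6g, chr15:75155011-75155260, plus strand: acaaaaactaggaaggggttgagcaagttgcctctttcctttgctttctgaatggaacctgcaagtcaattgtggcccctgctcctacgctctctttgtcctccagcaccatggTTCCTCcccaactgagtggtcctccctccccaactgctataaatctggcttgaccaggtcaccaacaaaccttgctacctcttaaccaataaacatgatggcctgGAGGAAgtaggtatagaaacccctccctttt

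In pairwise alignments with free ends, the Ly6g and Ly6c1 windows were identical at 83.5% of 206 aligned bases, Ly6g and Ly6c2 at 78% of 173, and Ly6c1 and Ly6c2 at 75.9% of 216. GAGGAA began at base -158 from the start of Ly6c1, -108 of Ly6c2, and -136 and -31 of Ly6g, and 23.3% of all 32851 promoter windows of this length in the table held it. On both strands, none of the 3 windows held the interferon-stimulated response element searched as GAAA, any 2 bases and GAAA again (in 2.98% of all windows), the ETS-IRF composite element searched as GGAA, any 2 bases and GAAA (2.3%) or the STAT element searched as TTCNNNGAA (7.02%). These patterns can overlap one another, and the letters describe these windows only. The promoter table held no entry for Ly6a or Ly6e.

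Across the arrays, the mean raw signal was 379 to 397 in wild type, 407 and 421 in KO and 265 and 284 in AT-3, so the AT-3 arrays were the dimmest, and 31% to 38.4% of probes were detected. Log2 values below are background-corrected and quantile-normalized. Irf8, the targeted gene, was lower in KO than in wild type by 1.69 on the log2 scale (-1.69, SE 0.31, limma adjusted p = 0.0063). The Irf8 difference did not pass without wild-type array 1 (adjusted p = 0.0547), in the authors' log2 values (-0.64, adjusted p = 0.0511) or with no background correction (-0.58, adjusted p = 0.0626). Irf8 rose in AT-3, above wild type by 1.67 (SE 0.31, limma adjusted p = 0.00651) and above KO by 3.36 (SE 0.31, limma adjusted p = 0.00104). The rise over wild type did not pass with no scaling between arrays (0.87, adjusted p = 0.0626) or without wild-type array 2 (1.57, adjusted p = 0.06). The position of its probe relative to the deletion is unknown. Itgam, the CD11b gene of the gate, rose in KO (2.06, SE 0.36, limma adjusted p = 0.0054) and in AT-3 (1.65, SE 0.36, limma adjusted p = 0.0122). The AT-3 rise of Itgam did not pass when wild-type array 2 (1.06, adjusted p = 0.0711), AT-3 array 1 (0.0552) or AT-3 array 2 (0.0607) was left out, nor under 2 other scalings, and its KO rise was 1.27 with no background correction. Ptprc, the CD45 gene of all leukocytes, passed in no comparison (0.30, -0.17 and -0.47, SE 0.44).

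The comparison of KO with wild type set the gated cells of the 2 genotypes side by side, and the 2 measured Ly6 antigens moved in opposite directions in it. Ly6c1 (probe ILMN_1254927) rose 3.25-fold. Ly6e (probe ILMN_2776278, the brighter of its pair) fell 9.84-fold. The comparison of AT-3 with wild type set the same gated fraction with and without a tumor side by side. There Ly6c1 rose 3.4-fold while Ly6e was 1.52-fold lower and did not pass the test.

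The raw signal of Ly6c1 was 5005.8 and 4250.7 in wild type, rose to 13011.6 and 15372.3 in KO, and was 9732.6 and 8946 with the AT-3 tumor. All 4 KO and AT-3 arrays lay above both wild-type arrays, and the probe was detected on all 6. After normalization these signals became 11.96 and 11.78 in wild type, 13.42 and 13.72 in KO and 13.62 and 13.65 in AT-3 on the log2 scale. The wild-type mean was 11.87 ± 0.13 (SD, n = 2), that of KO 13.57 ± 0.21 and that of AT-3 13.63 ± 0.03. KO and AT-3 overlapped with each other, and neither overlapped with wild type.

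Ly6c1 was higher in KO than in wild type by 1.7 on the log2 scale (SE 0.22, limma adjusted p = 0.00173), and 637 of 12492 tested genes rose by at least as much. It was higher in AT-3 than in wild type by 1.77 (SE 0.22, limma adjusted p = 0.00181), and 661 genes rose by at least as much. These comparisons share the wild-type arrays, here and for every gene below, so like changes in KO and AT-3 are not independent. Between AT-3 and KO the difference was 0.07 (95% interval -0.44 to 0.58, limma adjusted p = 0.881), and no direction was called. The sign of this last value turned with no scaling between arrays (-0.61, adjusted p = 0.0515), with the median of all probes set equal (-0.51, adjusted p = 0.0798) and without KO array 1 (-0.09). The rise in AT-3 was 1.03 with no scaling (adjusted p = 0.00687) and 1.09 with the median of all probes set equal (adjusted p = 0.00466), and still passed in both. Ly6c1 and Ly6c2 are near-identical in sequence, and since the probe's bases were not used here, whether it also reads Ly6c2 is uncertain.

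Ly6e gave raw signals of 8709.3 and 7657.5 in wild type, 1237.4 and 827.3 in KO, and 2295.2 and 3569.2 in AT-3 on its brighter probe. The dimmer probe (ILMN_2984828) read 4064.1 and 2830.7, 419.1 and 352.2, and 927.5 and 1394.9 in the same order. On both probes the KO arrays were lowest, the AT-3 arrays intermediate and the wild-type arrays highest in raw signal, with no overlap between groups. The AT-3 arrays were also the dimmest over all probes (mean raw signal 284 and 265, against 397 and 379 in wild type), so their raw gap from wild type is not read on its own. Normalized values of the brighter probe were 12.84 and 12.66 in wild type, 9.76 and 9.14 in KO, and 11.81 and 12.48 in AT-3. Those of the dimmer probe were 11.64 and 11.18, 7.81 and 7.56, and 10.48 and 11.22, where AT-3 array 2 lay above wild-type array 2.

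In KO, Ly6e fell by 3.3 on the log2 scale on its brighter probe (-3.30, SE 0.31, limma adjusted p = 0.00067), and 123 of 12492 genes fell by at least as much. The dimmer probe fell by 3.73 (SE 0.31, adjusted p = 0.000413 over 17631 probes). With every probe fitted on its own, 31.3%, 32.6% and 10.5% of probes were called for KO over wild type, for AT-3 over wild type and for AT-3 over KO. In AT-3 the brighter probe was at -0.61 (SE 0.31, 95% interval -1.35 to 0.13, limma adjusted p = 0.176) and the dimmer at -0.56 (SE 0.31, adjusted p = 0.206), and neither passed. Set against KO directly, AT-3 cells held 6.46-fold more Ly6e on the brighter probe (2.69, SE 0.31, limma adjusted p = 0.00301) and 8.97-fold more on the dimmer (3.16, SE 0.31, adjusted p = 0.00135). The AT-3 value depended on scaling: Ly6e was at -1.55 with no scaling between arrays (adjusted p = 0.00463) and at -1.49 with the median of all probes set equal (adjusted p = 0.0077), where the median gene stood at -0.44 and -0.385. Relative to the median gene these were -1.11 and -1.10. The AT-3 minus KO rise was 1.61 and 1.71 in those settings and passed in both. AT-3 minus wild type was -0.26 without AT-3 array 1 and -0.93 without AT-3 array 2, neither of which passed.

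**Figure D1:**
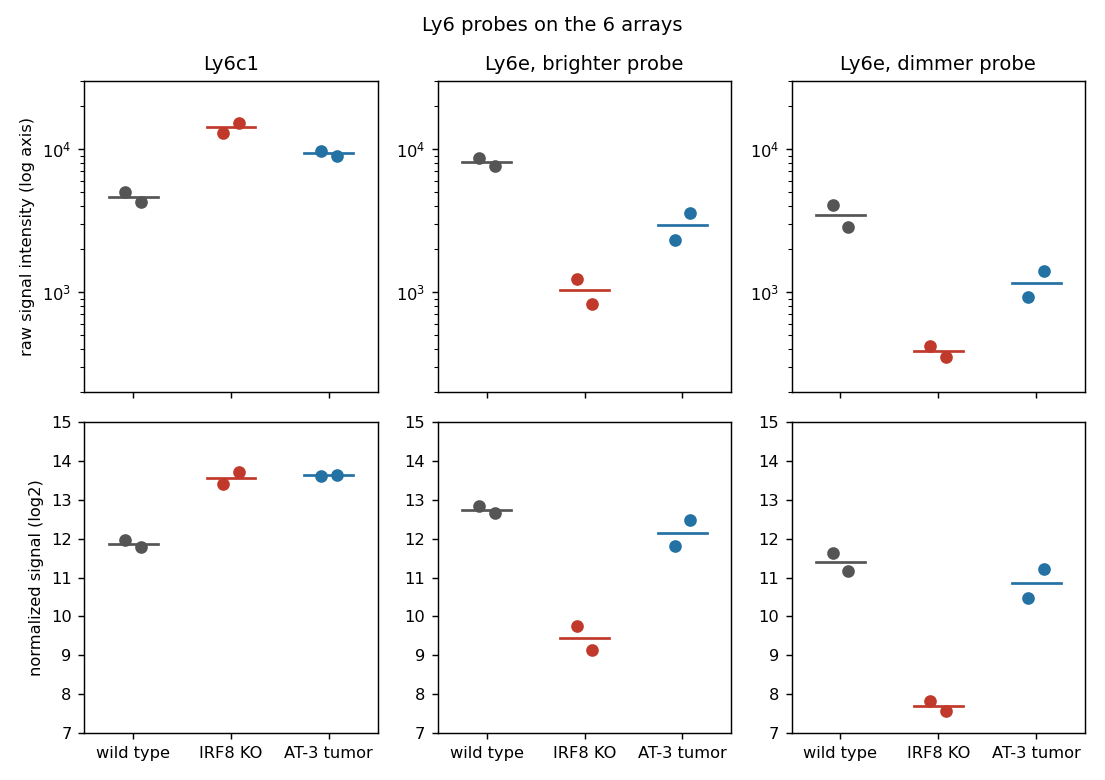
Raw signal (upper row, log axis) and normalized log2 signal (lower row) of the Ly6c1 probe and both Ly6e probes, with 1 point per array and a line at each group's mean. Ly6c1 lies between 13.42 and 13.72 in KO and AT-3 against 11.78 and 11.96 in wild type, and the brighter Ly6e probe falls to 9.14 and 9.76 in KO.

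Over all genes tested, 31.9% were called in KO against wild type, 34.9% in AT-3 against wild type and 11.5% in AT-3 against KO, at a limma adjusted p under 0.05. By direction, 15.4% were higher and 16.5% lower in KO, 17.3% and 17.6% in AT-3, and 6.16% and 5.34% in AT-3 against KO. Of the 2 members, 2, 1 and 1 were called in these comparisons, too few to set against those shares. The groups' arrays did not overlap for 69.2%, 71.9% and 54.6% of genes in the same order, so the gap between arrays is common in these data and is read here only beside the fitted test. The median gene changed by -0.00718, -0.00651 and -0.0239, against 1.7 and -3.3, 1.77 and -0.61, and 0.07 and 2.69 for Ly6c1 and Ly6e.

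**Figure D2:**
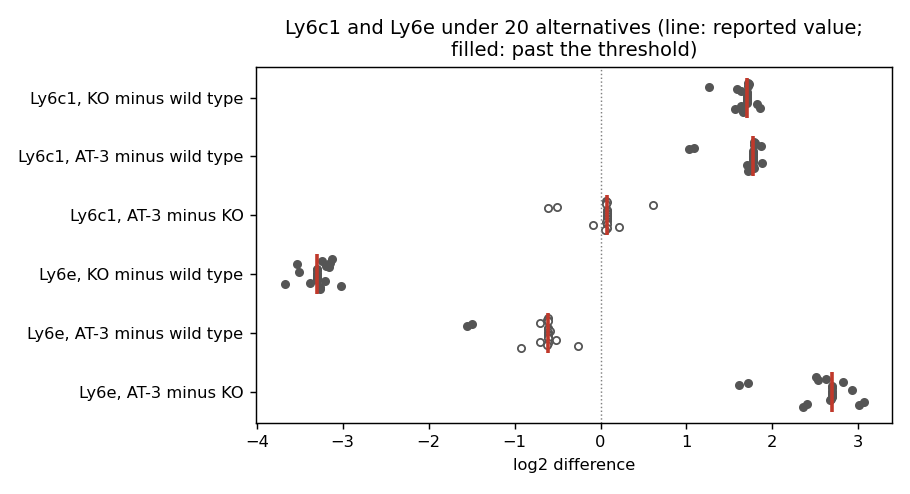
Log2 differences of Ly6c1 and Ly6e in each comparison under 20 other processing choices (points, filled where past the threshold) and as reported (line). Both KO differences, the Ly6c1 rise in AT-3 and the Ly6e rise of AT-3 over KO stay on the same side of 0 and past the threshold in all 20, while Ly6c1 in AT-3 against KO falls on both sides of 0.

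Other members of the Ly6/uPAR family, which share the disulfide-rich fold, were read from a list of 39 genes. Of these, 34 had a named probe and 10 passed the detection filter, which a gene detected in only 1 group passes through that group. The remaining 24 with a probe were not tested, among them Ly6i, whose raw signal of 98.8 to 114.2 was above background on no array. In KO, 4 of the 10 rose and 1 fell, in AT-3 4 rose and 1 fell, and between AT-3 and KO 1 rose, beside medians of 0.61, 0.41 and -0.24. Over all genes tested, 31.9%, 34.9% and 11.5% were called in the same order, and 10 genes are too few to set against those shares.

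Cd177, a neutrophil surface protein that presents proteinase 3 in human cells, had raw signals of 6288.6 and 5608.9 in wild type, 30484.3 and 34252.3 in KO and 20238.2 and 17076.5 in AT-3. Both groups stood above wild type, with rises of 2.65 in KO (SE 0.20, limma adjusted p = 0.000387) and 2.22 in AT-3 (SE 0.20, limma adjusted p = 0.000781). A second, dimmer Cd177 probe rose further, by 4.62 and 3.88.

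Ly6f lies in the same cluster as Ly6c1. Its brighter probe read 129.4 and 117.3 in wild type, where it was not above background, 331.6 and 500.8 in KO and 174.7 and 187.3 in AT-3. Both groups stood above wild type. The probe passed the detection filter only through these groups, so only a rise over wild type could be seen. For such a probe a fold is a lower bound, set on each dim array by its own value or the weakest detected probe, whichever was higher. Ly6f was at least 7.1-fold higher in KO (2.95, SE 0.33, limma adjusted p = 0.00112) and at least 4.06-fold higher in AT-3 (2.14, SE 0.33, limma adjusted p = 0.0037). These bounds hold under the background correction used here. The difference was 1.73 in KO and 1.13 in AT-3 with a larger offset, 1.32 and 0.81 in the authors' log2 values, and 1.22 and 0.74 with no background correction, past the threshold each time. The second Ly6f probe was above background on no array, so the 2 probes disagree, and with near-identical neighbours the source of this signal is uncertain.

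Ly6g5b, from a separate group of Ly6 genes on chromosome 17, rose in KO (2.36, SE 0.43, limma adjusted p = 0.00643) from raw signals of 180.6 and 176.6 to 470 and 988.9. In AT-3 it read 246.1 and 210.1 (1.34, SE 0.43, limma adjusted p = 0.0478). Over 20 alternatives the AT-3 difference of Ly6g5b ranged from 0.61 to 1.51, and 11 of them did not pass. Among these were the fits without any 1 of the wild-type or AT-3 arrays (1.20 to 1.51), no background correction (0.69), the authors' values (0.74) and no scaling (0.61). Its KO difference was 1.43 with no background correction and passed. Plaur, the urokinase receptor, rose in KO only narrowly past the threshold (1.03, SE 0.31, limma adjusted p = 0.042), with 1260.5 and 1391 in wild type against 2110.2 and 3718.4 in KO. It lost the call without KO array 2 (0.60, adjusted p = 0.0989), without either wild-type array (0.89 and 1.16) and without either AT-3 array.

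Lypd6b fell in both groups. Its probe read 245.3 and 211.4 in wild type and was not above background on any of the 4 other arrays, so it was at least 4.57-fold lower in KO (-2.44, SE 0.22, limma adjusted p = 0.000587) and at least 3.97-fold lower in AT-3 (-2.34, SE 0.22, limma adjusted p = 0.000886). Under other background corrections Lypd6b was at -1.32 in KO and -1.24 in AT-3 with a larger offset, and at -0.85 and -0.81 with none, smaller than these bounds but past the threshold. Lypd6b passed the detection filter only through the wild-type arrays, so only a fall could be seen. It was not tested when either of them was left out. Cd59a, an inhibitor of the complement membrane attack complex, rose in AT-3 (1.92, SE 0.51, limma adjusted p = 0.0249), with 285.8 and 157.4 against 143.4 and 133.1 in wild type. The AT-3 arrays were far apart. It was at 1.06 without AT-3 array 1 and 2.87 without AT-3 array 2, and did not pass without either wild-type array (adjusted p = 0.105 and 0.112) or with no background correction (0.86, adjusted p = 0.0896). Ly6d, a lymphoid marker, and Lynx1, Lypd5 and Psca passed in no comparison.

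**Figure D3:**
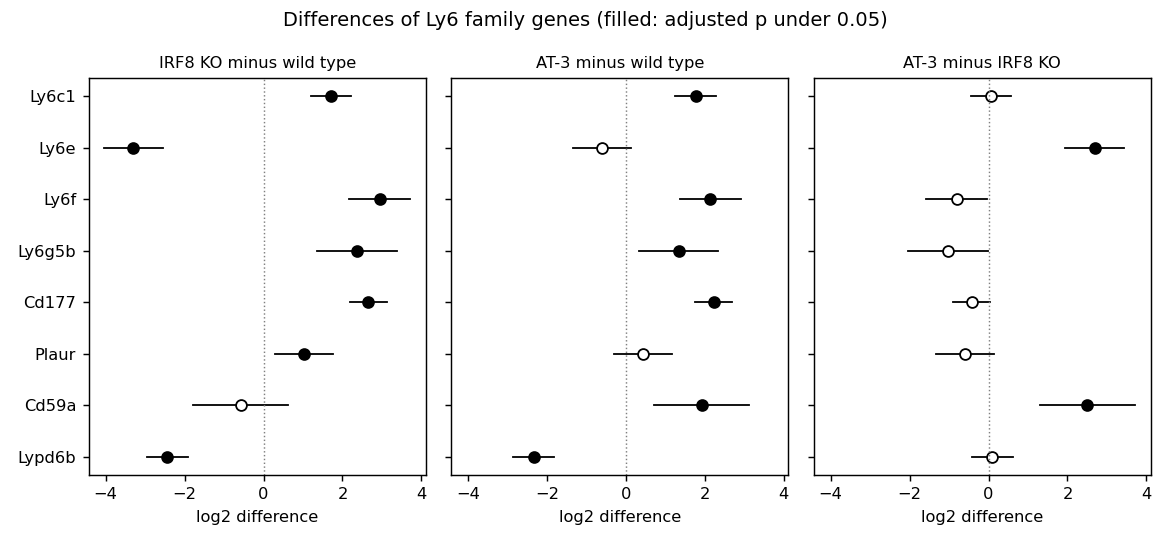
Log2 differences with 95% intervals of Ly6c1, Ly6e and the 6 other Ly6/uPAR family genes called in any comparison, filled where the adjusted p was under 0.05. Ly6e at -3.30 and Lypd6b at -2.44 stand to the left of 0 in KO, and Ly6c1, Ly6f, Ly6g5b, Cd177 and Plaur to the right.

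Ly6e is an interferon-inducible gene, so it was set beside 35 interferon-inducible genes, of which 29 were tested. Over all genes tested, 16.5% were called lower in KO, 17.6% in AT-3 and 5.34% in AT-3 against KO. In KO, 18 fell, 0 rose and 11 did not pass, with a median of -1.83, and 0 were higher at an unadjusted p under 0.05 in limma. Ifit3, an antiviral RNA-binding protein, fell by 6.21 (SE 0.61), and Oasl1, a regulator of translation, fell by 5.09 (SE 0.72). Ly6e, at -3.30, lay among them. In AT-3, 21 fell, 0 rose (0 also unadjusted) and 8 did not pass, with a median of -1.90, Ifit3 at -6.43 (SE 0.61) and Oasl1 at -4.48 (SE 0.72), against -0.61 for Ly6e.

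Between AT-3 and KO, the same 29 genes had a median of 0.05, 1 fell and 0 rose, and 1 was higher at an unadjusted p under 0.05 in limma. The one that fell was Ifit2 (-2.06, SE 0.38, limma adjusted p = 0.0169), a call lost without either AT-3 array (adjusted p = 0.0838 and 0.0695) and with no background correction (-0.98, adjusted p = 0.0567), and the highest was Gbp3 at 1.82 (SE 0.56, adjusted p = 0.0797). Ly6e, at 2.69, lay above all 29 in this comparison and passed the test. The list's own values and that of Ly6e are descriptions side by side, with no test of Ly6e against the list.

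**Figure D4:**
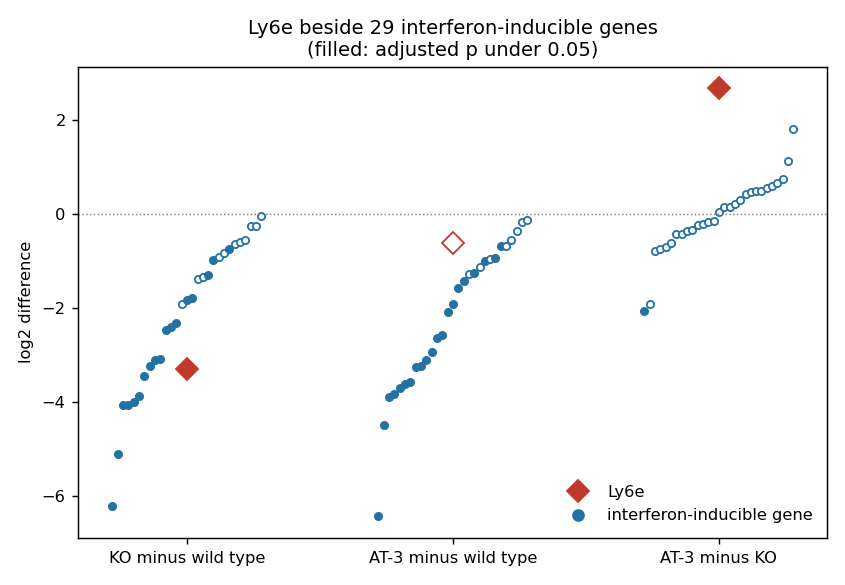
Log2 differences of Ly6e (diamonds) and of 29 interferon-inducible genes (circles, ordered by value) in the 3 comparisons, filled where the adjusted p was under 0.05. Ly6e lies among the genes that fell in KO at -3.30, near the upper end in AT-3 at -0.61, and above all 29 at 2.69 in AT-3 minus KO.

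Ly6 proteins reach the surface through the GPI anchor pathway, and 23 of 29 listed genes for anchor assembly and attachment were tested. In KO 5 rose and 1 fell (median 0.11), in AT-3 4 rose and 2 fell (median 0.07), and between AT-3 and KO 1 rose and 1 fell (median -0.11). Over all genes tested, 31.9%, 34.9% and 11.5% were called in the same order. The anchor genes were not called more often than that, so those named below are single genes and are not read as a change of the pathway. Pigu, a subunit of the transamidase that joins the anchor to the protein, rose in KO (2.52, SE 0.23, limma adjusted p = 0.000597) and in AT-3 (1.86, SE 0.23, limma adjusted p = 0.00186). Piga, which acts at the first step of anchor synthesis, rose in KO (1.52, SE 0.24, limma adjusted p = 0.00362). Pigp, a subunit of the same first enzyme, was lower in AT-3 than in wild type (-1.63, SE 0.36, limma adjusted p = 0.013) and than in KO (-2.54, SE 0.36, limma adjusted p = 0.00698). Its call against wild type was lost without either wild-type array (adjusted p = 0.0744 and 0.0798). Pigz, a mannosyltransferase, fell by 0.78 in KO (SE 0.22, limma adjusted p = 0.0344), a call lost without either KO array (-0.73 and -0.74). It was not tested when either wild-type array was left out. Pigz passed the detection filter only through those arrays, so only a fall from wild type could be seen. Pigf, an ethanolamine phosphate transferase partner, rose in AT-3 by 0.92 (SE 0.27, limma adjusted p = 0.0335), a call lost without either wild-type array (adjusted p = 0.0968 and 0.212) and without AT-3 array 2 (adjusted p = 0.147). Nor did Pigf pass with the median of all probes set equal (0.31, adjusted p = 0.443) or when arrays were left unscaled (0.26, adjusted p = 0.533). With no background correction the KO difference of Pigu was 1.18, that of Pigz -0.25, which did not pass, and the AT-3 minus KO difference of Pigp -1.12.

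The cell types that carry Ly6C and Ly6G were checked with markers. For the counts of markers called here and below, the share called over all genes tested was 31.9% in KO and 34.9% in AT-3. All 14 neutrophil markers were detected on both arrays of each group, and their summed normalized signal was 191000 to 198000 in wild type, 221000 to 246000 in KO and 243000 to 254000 in AT-3. In KO 4 of the 14 rose, 3 fell and 7 did not pass, and in AT-3 5 rose, 2 fell and 7 did not pass. Cd177, Itgam and the granule genes Ngp (1.42 and 1.21, SE 0.20) and Camp (1.16 and 1.06, SE 0.24) rose in KO and AT-3. The receptor genes Csf3r (-2.25 and -2.08, SE 0.40) and Cxcr2 (-2.06 and -1.06, SE 0.33) fell in both. Of 12 monocyte markers with a probe, 8 were detected on both wild-type arrays, 5 on both KO arrays and 9 on both AT-3 arrays. Their summed signal was 34200 on both wild-type arrays, 26200 to 27500 in KO and 46800 to 47000 in AT-3. Of the 9 monocyte markers tested, 0 rose and 5 fell in KO (0 were higher at an unadjusted p under 0.05), and 4 rose and 2 fell in AT-3. Ccr2, the receptor that brings Ly6C-rich monocytes out of the marrow, was detected on 0 of 2 KO arrays. It was at 5.15 and 5.54 in wild type, 4.32 and 4.40 in KO and 8.44 and 9.26 in AT-3. In AT-3 the other monocyte markers that rose over wild type were Fn1 (6.1, SE 0.48), F13a1 (4.7, SE 0.65) and Ms4a6d (3.48, SE 0.27). The 2 that fell there were Csf1r (-1.45, SE 0.27) and Cx3cr1 (-1.97, SE 0.36). Between AT-3 and KO, 6 of the 9 monocyte markers rose and 0 fell, with a median of 2.56. Over all genes tested, 6.16% were called higher in that comparison. Csf1r was still detected on both KO arrays, at 6.84 and 7.23 against 11.14 and 10.97 in wild type and 9.34 and 9.86 in AT-3.

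The summed signal of 14 macrophage markers was 33000 to 34700 in wild type, 7090 to 8050 in KO and 5750 to 6760 in AT-3, and all 12 that were tested fell in both groups. The summed signal of 8 erythroid markers was 4600 to 5820 in wild type, 580 to 818 in KO and 32000 to 47100 in AT-3. Of the 6 erythroid markers tested, 2 fell in KO and 5 rose in AT-3, while Klf1 was detected on no array. The summed signal of 9 T cell markers, a lineage in which some cells carry Ly6C, was 1470 to 1500 in wild type, 2900 to 3080 in KO and 1950 to 2050 in AT-3. Of the 4 T cell markers tested, 2 rose in KO and 0 passed in AT-3, where 1 was higher at an unadjusted p under 0.05 in limma. The summed signal of 11 stem and progenitor markers was 356 to 444 in wild type, 1090 to 1330 in KO and 395 to 788 in AT-3. Of the 4 tested, 1 rose in KO, the receptor gene Kit (2.96, SE 0.78, limma adjusted p = 0.0266), at 10.06 and 9.64 in KO against 6.45 and 7.33 in wild type, while Cd34 was detected on no array. Of 6 endothelial markers tested, 1 rose and 2 fell in KO and 2 fell in AT-3. Kdr was detected on 1 array of each group and Cdh5 on none. Of the NK cell markers, Ncr1 was detected on no array. The part of these markers in the Ly6c1 and Ly6e differences was not tested. In a sorted bulk sample, fewer cells of a type and less RNA per cell cannot be told apart.

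The genes most like each member were found by the root mean square difference of gene-centred log2 values over the 6 arrays. For Ly6c1 these were Tbcb, a tubulin folding cofactor (0.101, Pearson's r = 0.994), Lin28a, an RNA-binding protein (0.145, r = 0.986), and Mnat1, a subunit of the kinase that activates cyclin-dependent kinases (0.148, r = 0.989). Lin28a (5.78 and 5.47) and Mnat1 (5.64 and 5.53) were weak in wild type, and their likeness depends on the processing. With no background correction their KO differences were 0.70 and 0.67, against 1.71 for Ly6c1 and 1.41 for Tbcb. With the mean of a gene's probes, Lin28a was at 0.72 in KO. For Ly6e the likest were the receptor gene Gpr146 (0.181, r = 0.992), Bcl3, an atypical inhibitor of NF-kappaB (0.183, r = 0.998), and Cyp4f16, a cytochrome P450 (0.193, r = 0.995). With no background correction their KO differences were -2.30, -2.36 and -1.48, against -3.12 for Ly6e. Bcl3 stood at 10 and 9.67 in wild type, 6.48 and 6 in KO and 8.88 and 9.75 in AT-3, in the same order of groups as Ly6e. These values describe 6 arrays in 3 groups and carry no p.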

How the data were processed

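Arrays were grouped by the labels. The deposited table holds raw probe intensity on a linear scale, with a detection p-value against negative controls, per the file headers. The authors' log2 values equal quantile-normalized log2 intensities to within 5e-09 and have array medians of 6.91 or 6.92; the labels record no step behind them. Per the submitters' processing notes, GenomeStudio was used. Probes were named from the platform annotation, updated through Entrez identifiers (34885 with 1 symbol, 18 with several, 10378 with none). The authors' intensities were corrected by normexp (offset 16) and quantile-normalized by neqc (limma 3.58.1, R 4.3.3). Of 45281 probes, 17631 were detected at a p under 0.05 on at least 2 arrays, and the brightest probe per gene left 12492 features. A linear model of group means was fitted (lmFit, eBayes, 3 residual and 4.29 prior degrees of freedom), and Benjamini-Hochberg adjusted p values under 0.05 were called. No depth exists for arrays, and their number limits the precision. The rule for named genes took, beside the members, every called Ly6/uPAR gene, up to 2 called genes per other list that rose most and 2 that fell most, the 3 genes most like each member, and Irf8, Itgam and Ptprc. Cell type lists are given mainly by counts and summed signals, and Ccr2, Gbp3 and other genes outside the rule were chosen after their values were seen. Members and lists were chosen with earlier results of these data known.

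Alternatives were other background corrections, the authors' log2 values, 3 other scalings, 2 other filters, other uses of probes, fits of 4 arrays, a trended robust prior, a stricter threshold, a replicate block and leaving out each array. Where 1 array of a group was left, it was assumed to vary like the other groups.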

Additional observations from a re-analysis of the deposited data

Results flagged for a closer look

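In the direct test of AT-3 against KO, these 2 groups differed for Ly6e, at 2.69 (SE 0.31, limma adjusted p = 0.00301). Its signal was higher on both AT-3 arrays than on both KO arrays. The groups also differed for Cd59a, at 2.5 (SE 0.51, limma adjusted p = 0.0245), again higher on both AT-3 arrays. Its raw signal in KO was near background, at 122.3, which was not above it, and 145.1, against 285.8 and 157.4 in AT-3. The Cd59a difference did not pass when either wild-type array or either KO array was left out, and was not called in 10 of 19 alternatives, with adjusted p values of 0.00423 to 0.106 and differences of 1.01 to 3.49. With 2 arrays per group no group was large enough for a test of single outlying arrays.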

How the results depend on the processing

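In 20 alternatives each, the 6 differences of Ly6c1 and Ly6e kept direction and side of the threshold in 115 of 120 values; the exceptions were Ly6e in AT-3 against wild type at -1.49 when medians over all probes were equalized and -1.55 with no scaling between arrays, both then called, so that the members called there rose from 1 to 2, and Ly6c1 in AT-3 against KO, which turned to -0.51 and -0.61 in the same settings and ranged from -0.09 to 0.22 when 1 array was left out. For genes called in AT-3 against KO, 1436 (53.6% higher) became 4657 with equalized medians of detected probes (85.6% higher), 6456 with those of all probes (5.79%) and 7085 with no scaling (4.81%), where the median gene moved by 0.385, -0.727 and -0.825. For AT-3 against wild type these shares were 66.6%, 14.3% and 13.1%, against 49.5%, and for KO against wild type 40.1%, 61.3% and 64.6%, against 48.2%. The AT-3 against KO count was 607 in a fit of those 4 arrays alone, and at an adjusted p under 0.01 the 3 counts were 1964, 2080 and 411. Leaving out 1 array gave 1402 to 4282, 1377 to 5164 and 395 to 1726 genes called. Counts against wild type were more than 1.5 times lower without either wild-type array (1561 and 1402 for KO, 1576 and 1377 for AT-3) and, for AT-3, without AT-3 array 1 (2451), and AT-3 against KO was so without either wild-type array (638 and 631) or either AT-3 array (770 and 395). Same-numbered arrays showed no shared shift over genes (correlations of 0.086, -0.055 and 0.007). This cannot tell whether equal numbers mark the same experiment, which the labels do not say. With a replicate block the counts were 3750, 4154 and 1279 and the calls on Ly6c1 and Ly6e were as before. Of 909 values for other named genes and the dimmer Ly6e probe, 815 kept direction and side, 91 were no longer called, 2 became called and 1 reversed, Pigz in AT-3 against wild type with equalized medians of detected probes (0.15). The cause of these changes was not tested.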
